A study of Mus musculus with 3 samples.

Results

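The B lineage transcription factors described here were Pax5, Ebf1, Bach2, Bcl6, Prdm1, Spib, Spi1, Ikzf1, Ikzf3 and Foxo1. These 10 genes, of 32285 gene rows in the count matrices, were taken by name, and each name matched 1 row. Their levels were measured in spleen cells of mice by single-cell RNA sequencing in 3 libraries. The libraries used 10x Genomics 5′ chemistry, which tags RNA molecules with unique molecular identifiers (UMIs) so that molecules rather than PCR copies are counted.

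In the B lineage, Ebf1 and Pax5 set and hold B cell identity, and Foxo1 acts beside them during development. PU.1 (gene Spi1) and its relative Spi-B (gene Spib) are ETS factors that B cells share with myeloid cells and plasmacytoid dendritic cells. Ikaros (Ikzf1) and Aiolos (Ikzf3) are zinc finger proteins found across lymphocytes. Bach2 and Bcl6 are repressors that hold the activated B cell program, Bcl6 being required for the germinal centre, and Blimp-1 (gene Prdm1) is the repressor that ends this program as cells become antibody-secreting plasma cells. B cells and plasma cells are of interest in lupus because plasma cells are the source of autoantibodies.

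Spleens of sham-operated male and of female C57BL/6 mice went into the C57BL/6 control library. For the C57BL/6 Ang II library, mice of that strain had received angiotensin II (AngII) from a minipump, alone or with 2-hydroxybenzylamine (2HOBA, a scavenger of reactive lipid aldehydes). Pumps were implanted at 10 weeks of age and held 2 weeks of drug. The B6.SLE123 library held cells of a lupus-prone strain that carries 3 susceptibility intervals on the C57BL/6 background, from mice given placebo or 2HOBA for 6 weeks from 7 weeks of age. All mice were 12 to 14 weeks old per the labels, 3 mice were combined per condition, and T cells had been depleted with CD3 beads. The study's methods describe its lupus mice and their controls as female, whereas the labels put both sexes in the control library, so strain, sex, treatment and library cannot be told apart in any comparison below. Each library carried 6 hashtags, antibody tags that mark a population of cells. No label tied a hashtag to a condition, so the effect of 2HOBA was not analysed here, and hashtag populations are given as 6 values whose lowest, median and highest are shown.

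Where 3 values stand in a row, they are in the order control, Ang II, B6.SLE123. After filtering, 15700, 14017 and 16702 cells remained. Cells were put in classes by counting how many markers of a lineage each had, and no member was a marker. B cells numbered 13155, 11528 and 12978, with a median of 1773, 2745 and 1925 UMIs per cell. Plasma cells numbered 18, 29 and 250. A class cut in this way is a range of marker counts, not a cell type. In the B6.SLE123 library 84 of the 250 plasma cells sat at the minimum of 5 of 7 plasma markers, and 254 B cells lay 1 marker under it. Of these B cells 99 were outside the germinal centre gate, whose cells were not classed as plasma cells at any marker count. T cells numbered 280 in the Ang II library and 8 and 6 in the control and B6.SLE123 libraries, so classes of under 20 cells in a library are not described. Any pair of libraries shared cell barcodes, 1.94% to 2.38% of a library's cells. In B cells the summed level of the 4 B cell markers was 7685, 7153 and 6858 CPM, that of 5 neutrophil markers 274, 217 and 219 CPM and that of 7 monocyte markers 19.1, 10.8 and 25.8 CPM. Levels are CPM, the UMIs of a gene summed over a class per 1000000 UMIs of that class. A CPM is not scaled by gene length, so a gene is compared with itself only. Each group was 1 library, which left no replicate and no test. Intervals are exact 95% intervals for counting error and say nothing of variation between mice.

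The 10 genes were read against the sequence just upstream of their starts. RefSeq promoter windows (GRCm38.p6, 250 bases before to 50 bases after a start) were held for 8 of the 10 genes, all but Spi1 and Ikzf3, as 11 windows. These 5 motifs were searched on both strands: TCCC and GGGA parted by any 2 bases for Ebf1, GTAAACA for Foxo1, TGGGAAT for the Ikaros family, GAGGAAGT for PU.1 and Spi-B, and AGTGAAAG for Blimp-1. A match is a description of the letters and not a bound site. The 3 stretches with a match are shown because each places the letters of one member upstream of a RefSeq start of another, with the matches in capitals.
Foxo1, chr3:52268223-52268276, + strand, 54 bases with the Ebf1 motif: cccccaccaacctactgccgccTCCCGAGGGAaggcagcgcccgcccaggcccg
Prdm1, chr10:44458910-44458998, - strand, 89 bases with the Foxo1 and Ikaros family motifs: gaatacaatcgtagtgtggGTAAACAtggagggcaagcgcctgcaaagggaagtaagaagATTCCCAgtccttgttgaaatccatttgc
Ebf1, chr11:44619998-44620048, + strand, 51 bases with the Ikaros family motif: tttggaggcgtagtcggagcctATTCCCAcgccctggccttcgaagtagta
The Ebf1 motif began 92 bases before the Foxo1 start and was held by 0.904% of all 32851 windows. The Foxo1 motif began 231 bases before the Prdm1 start (3.65% of windows). The Ikaros family motif began 190 bases before the Prdm1 start and 208 bases before 1 of the 2 Ebf1 starts (4.66% of windows). The Prdm1 and Ebf1 stretches lay inside the annotated genes (44437177 to 44528501, minus strand, and 44617317 to 45008091, plus strand). They were thus upstream of starts within the genes, not of the whole genes. None of the 3 stretches touched an exon of its gene. The PU.1 and Spi-B motif and the Blimp-1 motif, held by 3.2% and 1.32% of windows, were in no member's window.

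Across the classes of spleen cells, the 10 genes fell into those read almost only in B cells and those shared with other lineages. Pax5, on chromosome 4 (44524757 to 44710487, minus strand), measured 325, 256 and 204 CPM in B cells. In NK cells, neutrophils and monocytes it measured 0.939 to 5.57 CPM, and plasmacytoid dendritic cells (pDC) had no Pax5 UMI in any library. Ebf1, on chromosome 11 (44617317 to 45008091, plus strand), measured 730, 876 and 463 CPM in B cells against 0.741 to 10.9 CPM in NK cells, neutrophils and monocytes. B cells had the highest level of both genes among the main classes of each library.

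**Figure D1:**
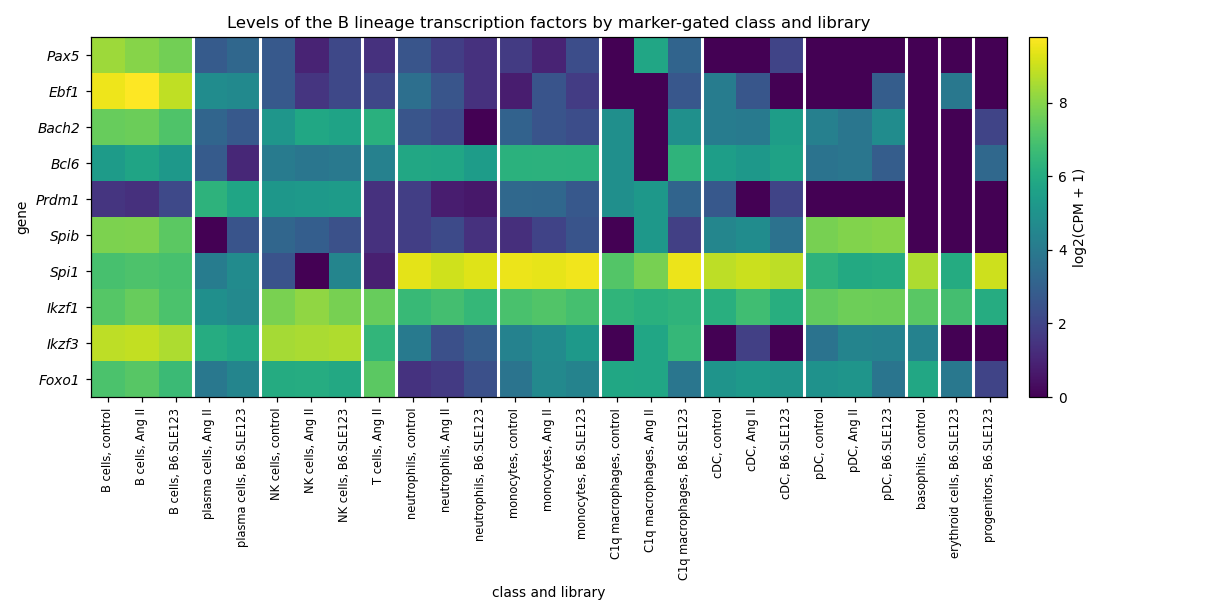
Each square gives log2(CPM + 1) of 1 gene (rows) in 1 marker-gated class of 1 library (columns), for classes with at least 20 cells. Pax5 and Ebf1 are brightest in B cells, Spib is bright in B cells and pDC, and Spi1 is brightest in monocytes, neutrophils and the C1q-gated macrophages of the B6.SLE123 library.

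Spib was as high in pDC as in B cells. It measured 219, 241 and 257 CPM in pDC, from 36, 36 and 40 UMIs, and 227, 235 and 157 CPM in B cells, and no other class passed 36.5 CPM. Spi1, the gene of PU.1, had the opposite order, with 714, 672 and 767 CPM in monocytes and 660, 542 and 636 CPM in neutrophils. In B cells it stood at 122, 133 and 120 CPM, and in NK cells at no more than 21 CPM. B cells thus carried both ETS genes, while myeloid cells carried Spi1 with 1.48 to 4.75 CPM of Spib in monocytes.

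In the macrophages gated on the complement genes C1qa, C1qb and C1qc and 4 further markers, Spi1 measured 140 CPM in the control library from 5 UMIs, 219 CPM in the Ang II library from 12 UMIs and 712 CPM in the B6.SLE123 library from 270 UMIs. The B6.SLE123 value was higher than the control value by 2.34 on the log2 scale (95% interval 1.10 to 3.98). The class also differed in kind between these libraries. Vcam1, Hmox1, Slc40a1 and Axl, the 4 further markers, measured 815, 1500, 374 and 200 CPM in the B6.SLE123 library. In the control library they measured 4375, 3673, 3393 and 1150 CPM. C1qa, C1qb and C1qc did not fall in this way, with 3504, 6151 and 4052 CPM in the B6.SLE123 library against 3702, 3870 and 3814 CPM in the control library. Hashtag C0303 was carried by 126 of the 198 cells of the class in the B6.SLE123 library. The part of these marker and hashtag differences in the Spi1 difference was not tested.

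The Ikaros family genes were shared among lymphocytes. Ikzf3 measured 441, 475 and 385 CPM in B cells and 353, 366 and 386 CPM in NK cells, so that the highest NK cell value met the lowest B cell value. In neutrophils it measured 4.28 to 15.1 CPM. Ikzf1 was read in every class, from 220 to 283 CPM in NK cells and 171 to 194 CPM in pDC to 23 and 28.3 CPM in the plasma cells of the B6.SLE123 and Ang II libraries. In B cells Ikzf1 measured 146, 182 and 127 CPM, a range that overlapped that of monocytes (117 to 139 CPM). Foxo1 measured 126, 151 and 101 CPM in B cells, 58.7 to 64.8 CPM in NK cells and 159 CPM in the T cells of the Ang II library.

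The 3 repressors each had a second home. Bach2 measured 181, 190 and 136 CPM in B cells, 34.3 to 55.4 CPM in NK cells and 72.4 CPM in the T cells of the Ang II library. Bcl6 was higher in monocytes (74.8, 76.9 and 74.4 CPM) than in all B cells (40.1, 50.9 and 36.5 CPM). Prdm1 measured 79 and 52.7 CPM in the plasma cells of the Ang II and B6.SLE123 libraries, 35.3, 38.5 and 39.8 CPM in NK cells and 1.88, 1.55 and 3.52 CPM in B cells. The counting intervals of the 3 NK cell levels of Prdm1 overlapped.

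The share of single cells with a UMI gave the same order at equal depth. With each cell thinned to 1000 UMIs, Pax5 was detected in 27.4% of control B cells, 22% of Ang II B cells and 19% of B6.SLE123 B cells, after 878, 601 and 1255 shallower cells had been left out. The shares before thinning were 45.6%, 50.2% and 36.2%. Neutrophils, a class outside the B lineage with medians of 1144, 2070 and 1393.5 UMIs, gave the background of free RNA: their thinned shares were 0.514%, 0% (0 of 597 cells) and 0.252%. Ebf1 was detected in 51.2%, 57.7% and 38.5% of thinned B cells.

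The question of the B6.SLE123 comparison is whether B cells of lupus-prone mice carry other amounts of these regulators than B cells of C57BL/6 mice. Of the 10 genes, 9 had a lower value in the B6.SLE123 library, Spi1 by less than its counting error. Pax5 and Ebf1, the factors of B cell identity, were past 1.5-fold lower, and Prdm1 was past 1.5-fold higher. Among the 11380 genes with at least 50 UMIs over both libraries, 6.88% were past 1.5-fold lower and 10.2% past 1.5-fold higher. The median log2 ratio of the 10 genes was -0.26, beside -0.04 over all genes read. With the cell limits of the study read as UMIs (over 200 and under 3500) instead of genes detected, no member was past 1.5-fold: the log2 ratios of Pax5, Ebf1 and Prdm1 were then -0.58, -0.48 and 0.02.

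Pax5 measured 307 to 352 CPM (median 326) over the 6 hashtag populations of control B cells and 190 to 216 CPM (median 204) over those of B6.SLE123 B cells. Every B6.SLE123 population lay under every control population. The log2 ratio was -0.67 (95% interval -0.72 to -0.62). Ebf1 ranged from 683 to 803 CPM (median 724) in the control populations and from 421 to 537 CPM (median 442) in the B6.SLE123 populations, again without overlap. Its log2 ratio was -0.66 (-0.69 to -0.63).

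Spib, Bach2, Foxo1 and Ikzf3 were also lower in all 6 populations, by less. Spib stood at 204 to 273 CPM in the control and 142 to 177 CPM in the B6.SLE123 populations, with a log2 ratio of -0.53. Bach2 stood at 161 to 207 CPM and 131 to 143 CPM, with a log2 ratio of -0.42. Foxo1 stood at 109.9 to 146 CPM and 92.3 to 109.6 CPM, so that its populations only just did not overlap, with a log2 ratio of -0.32. Ikzf3 stood at 424 to 486 CPM and 354 to 408 CPM, with a log2 ratio of -0.20. In all, 6 of the 10 genes had 6 populations below the 6 control populations, and 10.6% of all genes read did. None of the 10 had 6 populations above them, which 9.99% of genes did.

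The other members overlapped between the libraries. Spi1 measured 118 to 130 CPM in the control populations and 114 to 128 CPM in the B6.SLE123 populations, and its log2 ratio of -0.02 had an interval that included 0 (-0.09 to 0.04) and was 0.00 under TMM scaling and 0.02 without doublet removal. The log2 ratio of Spib in pDC, its other main class, was 0.23 (-0.46 to 0.92). Ikzf1 and Bcl6 had log2 ratios of -0.20 and -0.14.

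**Figure D2:**
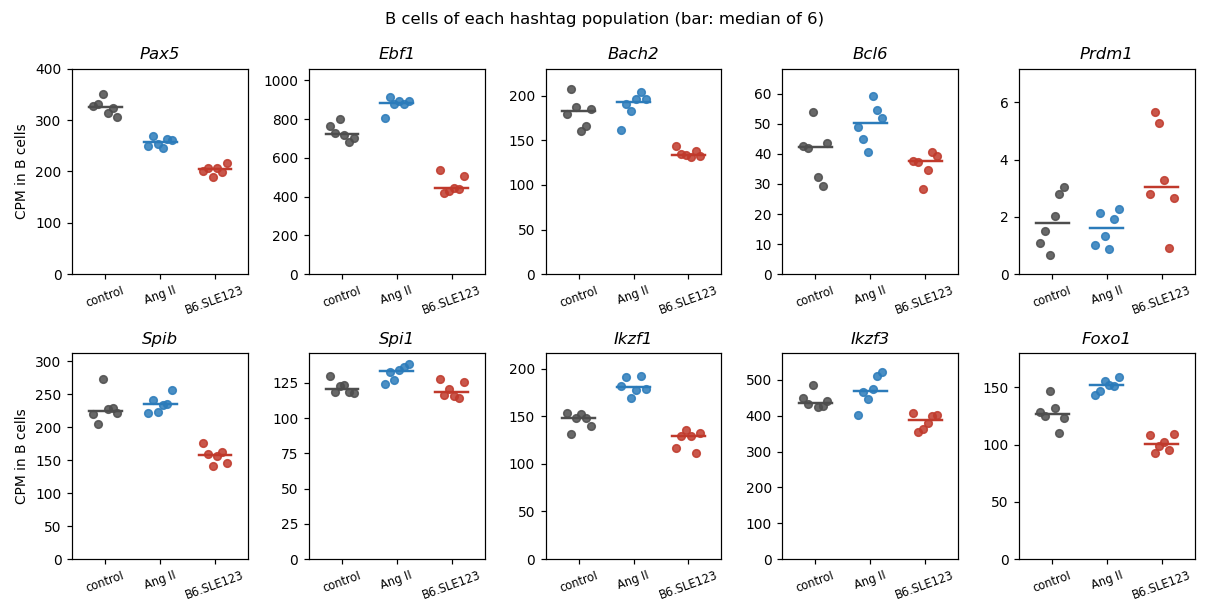
Each point is the CPM of a gene in the B cells of 1 hashtag population, with 6 populations per library, the bar their median, and the y axis starting at 0. The B6.SLE123 points lie under all control points for Pax5, Ebf1, Bach2, Spib, Ikzf3 and Foxo1, and the Ang II points lie under them for Pax5 and above them for Ebf1 and Ikzf1.

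The make-up of the B cells differed between these libraries, so the ratios were also read within B cell subsets, gated on markers of each. Germinal centre B cells numbered 52 in the control and 533 in the B6.SLE123 library, and follicular B cells 3235 and 1775. Within follicular B cells the log2 ratio of Pax5 was -0.56 (-0.67 to -0.45) and that of Ebf1 -0.46 (-0.54 to -0.39), so neither was past 1.5-fold there, and their 6 populations still lay below the control populations. Within marginal zone B cells the log2 ratios were -0.46 for Pax5 and -0.49 for Ebf1. Within germinal centre B cells they were -0.77 and -0.66. In follicular, marginal zone, germinal centre and B1 cells, Ebf1 was below control with an interval that excluded 0, and Pax5 in 3 of these 4. Ebf1 was not lower in B cells gated on cell cycle genes. There it measured 219 CPM in the control (69 UMIs) and 245 CPM in the B6.SLE123 library (238 UMIs), and Pax5 222 and 158 CPM. The Spib ratio was -0.56 in follicular and -0.33 in marginal zone B cells, and -0.05 (-0.42 to 0.33) in germinal centre B cells. The Foxo1 ratio was -0.13 in follicular B cells, with an interval that included 0 (-0.29 to 0.03). The follicular populations of Foxo1 and of Ikzf3 overlapped those of the control library.

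**Figure D3:**
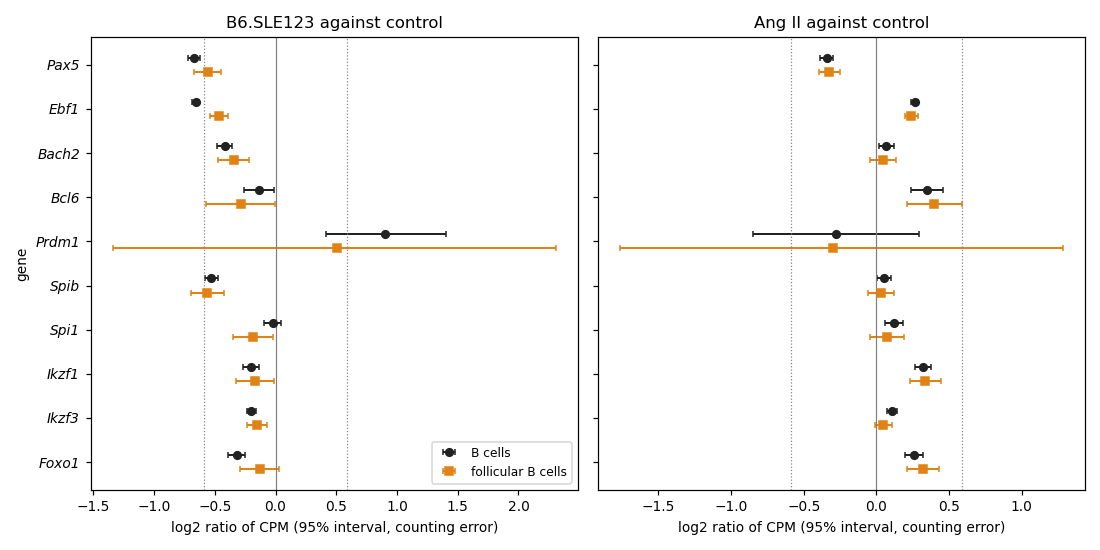
Points give the log2 ratio of CPM of the B6.SLE123 (left) or Ang II (right) library to the control library, in all B cells (circles) and in follicular B cells (squares), with exact 95% intervals for counting error. Dotted lines mark 1.5-fold: Pax5, Ebf1 and Prdm1 pass them in all B cells of B6.SLE123, and none does in follicular B cells or in the Ang II library.

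Prdm1 was the only member with a higher value in B6.SLE123 B cells. It had 52 UMIs in control and 111 UMIs in B6.SLE123 B cells, a log2 ratio of 0.90 (0.42 to 1.41), and its hashtag populations overlapped (0.675 to 3.04 CPM and 0.917 to 5.68 CPM). The added UMIs sat in few cells. The 533 germinal centre B cells held 34 of the 111 UMIs (10.4 CPM), and 99 other B cells with 4 or more plasma markers held 26 (48.7 CPM). The remaining 12346 B cells held 51 UMIs, or 1.84 CPM, and the remaining 13088 B cells of the control library held 50 UMIs, also 1.84 CPM. Over these remaining cells the log2 ratio was -0.00 (-0.59 to 0.59). The 7 plasma markers summed to 690 CPM in control and 1276 CPM in B6.SLE123 B cells, and their part in the ratio of all B cells was not tested beyond this split.

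Known target genes were read beside the factors. Of 7 genes known as activated by Pax5 or Ebf1, only the IgE receptor gene Fcer2a was past 1.5-fold lower (308 CPM in control and 118 CPM in B6.SLE123 B cells, log2 ratio -1.38), and it is a follicular marker of the gates. Over all genes 6.88% were past 1.5-fold lower and 10.2% higher, and the counts in these short lists lay near those shares. The median log2 ratio of the 7 was -0.19, beside -0.04 over all genes. Cd72, a B cell surface receptor gene, was higher, at 238 and 311 CPM (log2 ratio 0.39). The 5 genes known as activated by Foxo1 had a median of -0.30. Of them, the cytokine receptor gene Il7r was past 1.5-fold higher, at 0.253 and 1.81 CPM from only 7 and 57 UMIs. Ccr7, a homing receptor and follicular marker, had a log2 ratio of -0.53 and Klf2 one of 0.09. None of the 4 genes known as activated by PU.1 or Spi-B was past 1.5-fold (median -0.16): Btk had a log2 ratio of -0.23 and Blnk one of 0.14.

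Among 20 other regulators of the B lineage, 6 were past 1.5-fold higher in B6.SLE123 B cells and none past 1.5-fold lower, where 10.2% and 6.88% of all genes were, with a median log2 ratio of 0.04. Zbtb32 measured 2.03 and 21.1 CPM (log2 ratio 3.38), Mef2b, a germinal centre gene, 7.96 and 71.9 CPM (3.18), and Tbx21, which encodes T-bet, 2.39 and 14.5 CPM (2.61). Bhlhe41, Myc and Id2 had log2 ratios of 1.31, 0.91 and 0.89. Mef2b, Tbx21, Zbtb32 and Bhlhe41 are also markers of the subset gates. Within follicular B cells 18 of the 20 had at least 50 UMIs, and Tbx21 (log2 ratio 2.15, 1.34 to 3.02), Myc (0.79, 0.51 to 1.07) and Bhlhe41 (0.67, -0.18 to 1.52) were past 1.5-fold higher, the last with an interval that included 0. Mef2b and Id2 had follicular log2 ratios of -0.08 and 0.26, and Zbtb32 rested on 9 and 5 UMIs there, all 3 with intervals that included 0. Mef2c, Foxp1, Ets1 and Pou2f2 had log2 ratios of -0.56, -0.52, -0.49 and -0.58, close to that of Spib in all B cells. Klf2, Irf8, Pou2af1 and Tcf3 of the same list were not lower, at 0.09, 0.18, 0.23 and 0.00. Within follicular B cells Mef2c, Foxp1, Ets1 and Pou2f2 had log2 ratios of -0.35, -0.30, -0.35 and -0.54, beside -0.56 for Spib. Klf2, Irf8, Pou2af1 and Tcf3 had 0.26, 0.34, 0.01 and -0.08 there. Of 6 genes known as repressed by Blimp-1 (median -0.27), Myc was past 1.5-fold higher and Pax5 lower.

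The Ang II comparison asks the same of B cells under a pressor stimulus. None of the 10 genes was past 1.5-fold in either direction, where 3.83% of 11338 genes were past it higher and 2.36% lower. Their median log2 ratio was 0.11, beside 0.06 over all genes read. Pax5 was lower in all 6 populations (245 to 269 CPM, against 307 to 352 CPM in the control library), with a log2 ratio of -0.34 (-0.39 to -0.30). Ebf1 was higher in all 6 (808 to 913 CPM, against 683 to 803 CPM), with a log2 ratio of 0.26 (0.24 to 0.29). These genes, both lower in B6.SLE123 B cells, thus lay on opposite sides of the control library here. Ikzf1 was also higher in all 6 populations (169 to 192 CPM, against 131 to 154 CPM), with a log2 ratio of 0.32. Of all genes read, 4.82% had 6 lower and 8.09% 6 higher populations.

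The directions of Pax5 and Ebf1 were the same within subsets. In follicular, marginal zone and germinal centre B cells the Pax5 log2 ratios of Ang II to control were -0.32, -0.27 and -0.48, and those of Ebf1 were 0.24, 0.43 and 0.38. Bcl6 had a log2 ratio of 0.35 in all B cells and 0.40 in follicular B cells, and Foxo1 0.26 and 0.32, with overlapping populations in all B cells. Spib and Bach2 had log2 ratios of 0.05 and 0.07, and that of Spib was -0.00 under TMM scaling. Among the lists, Myc (0.68) and Zbtb32 (0.72) of the 20 other regulators were past 1.5-fold higher, and so was Il7r. The Il7r value rested on 7 UMIs in control and 45 UMIs in Ang II B cells (0.253 and 1.24 CPM). No gene of a list was past 1.5-fold lower. Over all genes 3.83% were past 1.5-fold higher and 2.36% lower. Both comparisons share the control library, so their values are not independent.

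The levels also ordered the B cell subsets. Among the 9 members with at least 50 UMIs, Bach2 and Bcl6 were past 2-fold between follicular B cells and marginal zone B cells, the subset that answers blood-borne antigen early. Bach2 measured 31.2, 43.4 and 30.8 CPM in marginal zone and 222, 229 and 174 CPM in follicular B cells, a difference of 7.1-fold, 5.26-fold and 5.65-fold. Bcl6 measured 9.8, 15.1 and 5.14 CPM in marginal zone and 45.1, 59.5 and 37 CPM in follicular B cells. These 2 of the 9 were past 2-fold lower in each library, where 6.44%, 5.7% and 4.77% of genes were, and none was past 2-fold higher, where 3.14%, 3.55% and 2.48% of genes were. Pax5 and Ebf1 differed by at most 1.18-fold and 1.1-fold between these subsets. Prdm1, under the minimum of UMIs, measured 4.46, 3.78 and 2.34 CPM in marginal zone B cells, from 10, 12 and 5 UMIs, and 0.999, 0.811 and 1.42 CPM in follicular B cells, from 7, 12 and 6 UMIs. Its log2 ratio of marginal zone to follicular B cells was 2.16 (0.62 to 3.79), 2.22 (0.94 to 3.50) and 0.72 (-1.33 to 2.69). B1 cells, which arise early in life, had Bach2 levels of 28.1, 86.8 and 24.4 CPM, from 4, 21 and 22 UMIs.

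In germinal centre B cells the order turned. Bcl6 measured 167, 122 and 107 CPM there, and Bach2 422, 318 and 255 CPM, above follicular B cells of the same library in all 3. In the B6.SLE123 library Bcl6 was past 2-fold higher (log2 ratio 1.53, 1.26 to 1.81) and Ebf1 past 2-fold lower, at 224 against 541 CPM (log2 ratio -1.27). Of the 8514 genes read, 14.8% were past 2-fold higher and 13.1% lower. Over the 6 hashtag populations, germinal centre B cells of this library had 86.5 to 162 CPM of Bcl6, and follicular B cells had 28.3 to 44 CPM. Pax5 was lower in germinal centre than in follicular B cells by 1.27-fold, 1.42-fold and 1.47-fold. Klf2 and S1pr1, genes known as activated by Foxo1 and no markers of either gate, measured 18.4 and 3.98 CPM in germinal centre and 851 and 116 CPM in follicular B cells of this library, while Foxo1 itself measured 115 and 118 CPM.

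**Figure D4:**
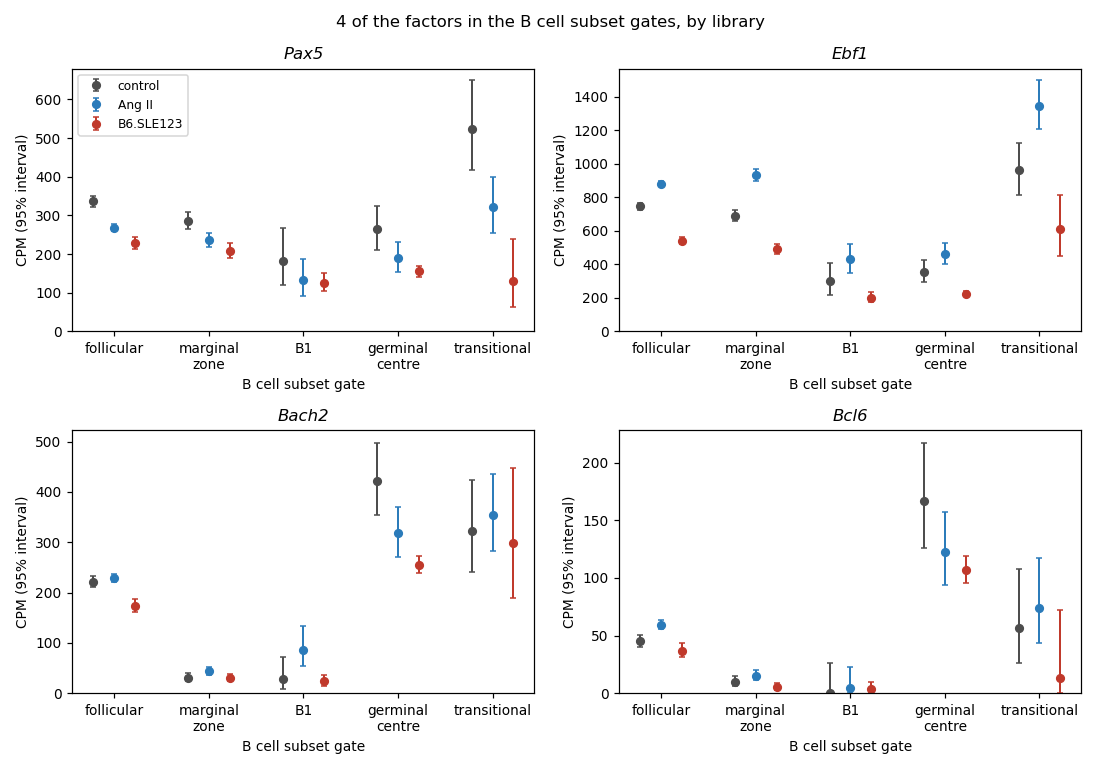
Points give CPM of Pax5, Ebf1, Bach2 and Bcl6 in 5 B cell subset gates of the 3 libraries, with exact 95% intervals for counting error. Bach2 and Bcl6 are low in marginal zone and B1 cells and high in germinal centre B cells in every library. The B6.SLE123 point of Ebf1 is the lowest of the 3 in each of these 5 gates.

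Transitional B cells, the recent arrivals from bone marrow, had the highest Ebf1 value among these subsets in each library, at 961, 1348 and 610 CPM, although the B6.SLE123 value lay within counting error of that of follicular B cells (log2 ratio 0.17, -0.28 to 0.59). Spib measured 417 and 469 CPM in them in the control and Ang II libraries, 1.97-fold and 2.16-fold above follicular B cells. The B6.SLE123 library held 31 transitional B cells with 10 Pax5 UMIs, too few to order. They also had 39 CPM of Prdm1, from 3 UMIs. With immunoglobulin genes left out of the totals, their Ebf1 value rose from 610 to 719 CPM, and that of the control library from 961 to 988 CPM. Immunoglobulin genes thus held a larger share of UMIs in this gate of the B6.SLE123 library. Whether the gate took in cells close to plasma cells was not tested.

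Plasma cells were compared with B cells within the B6.SLE123 library, which held 250 of them. Prdm1 was past 2-fold higher and the other 9 members past 2-fold lower. A lower level was also the rule among genes: 60.1% of 10767 genes were past 2-fold lower and 5.54% higher, and immunoglobulin genes took 51.7% of plasma cell UMIs against 2.12% of B cell UMIs. With immunoglobulin genes left out of the totals, the counts of the members were again 1 and 9, where 20.8% of 10550 genes were past 2-fold lower and 11.6% higher. The median log2 ratio of the 10 genes was then -2.53, beside -0.23 over all genes. With the cell limits read as UMIs, which removes most plasma cells, only Ebf1 and Spib of the members with at least 50 UMIs were past 2-fold, both lower (log2 ratios of -2.82 and -1.04), Ikzf1 and Ikzf3 had log2 ratios of 0.37 and 0.34, and Prdm1, under that minimum, had one of 6.76.

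The members split in size. Prdm1 measured 3.52 CPM in B cells and 52.7 CPM in plasma cells, 15-fold more (log2 ratio 3.90, 3.54 to 4.28). Over the 5 hashtag populations with 20 or more plasma cells it ranged from 37.1 to 75.8 CPM. Spib, Bcl6, Bach2, Pax5 and Ebf1 measured 4.82, 1.11, 5.56, 8.53 and 24.1 CPM in plasma cells, with log2 ratios of -5.02, -5.03, -4.61, -4.58 and -4.26. Spi1, Foxo1, Ikzf1 and Ikzf3 were lower by less, with log2 ratios of -2.25, -2.29, -2.46 and -2.84. Without immunoglobulin genes these became -1.23, -1.27, -1.44 and -1.82, and that of Pax5 -3.56. Bcl6 in plasma cells rested on 3 UMIs.

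The change was placed along the number of plasma markers per cell, with germinal centre B cells left out. With 0, 1, 2 and 3 markers detected, Pax5 measured 228, 219, 196 and 171 CPM and Prdm1 0.833, 1.79, 2.22 and 4.06 CPM. The 99 cells with 4 markers had 89.9 CPM of Pax5 and 48.7 CPM of Prdm1 as a sum. Of these cells 25 had a Pax5 UMI, 18 a Prdm1 UMI and 3 both. With 5, 6 and 7 markers Pax5 measured 14.9, 6.42 and 5.41 CPM, and Prdm1 51.3, 48.5 and 65 CPM. Spib and Ikzf1 kept their B cell levels up to 3 markers (152 and 129 CPM) and measured 86.1 and 89.9 CPM at 4 and 12.2 and 27 CPM at 5. Without immunoglobulin genes in the totals, Ikzf1 measured 111 CPM at 4 and 52.3 CPM at 5. The number of markers detected also rises with depth, and median UMIs rose from 1455 at 0 markers to 4387 at 4 and 11424 at 7. The immunoglobulin share of UMIs rose from 1.79% at 0 markers to 19.2% at 4, 48.4% at 5 and 54.1% at 7, which lowers the CPM of other genes. Without immunoglobulin genes, Prdm1 measured 60.3, 99.4, 102 and 141 CPM at 4, 5, 6 and 7 markers. Pax5 then measured 111, 28.8, 13.5 and 11.8 CPM. The part of depth in the order was not tested.

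**Figure D5:**
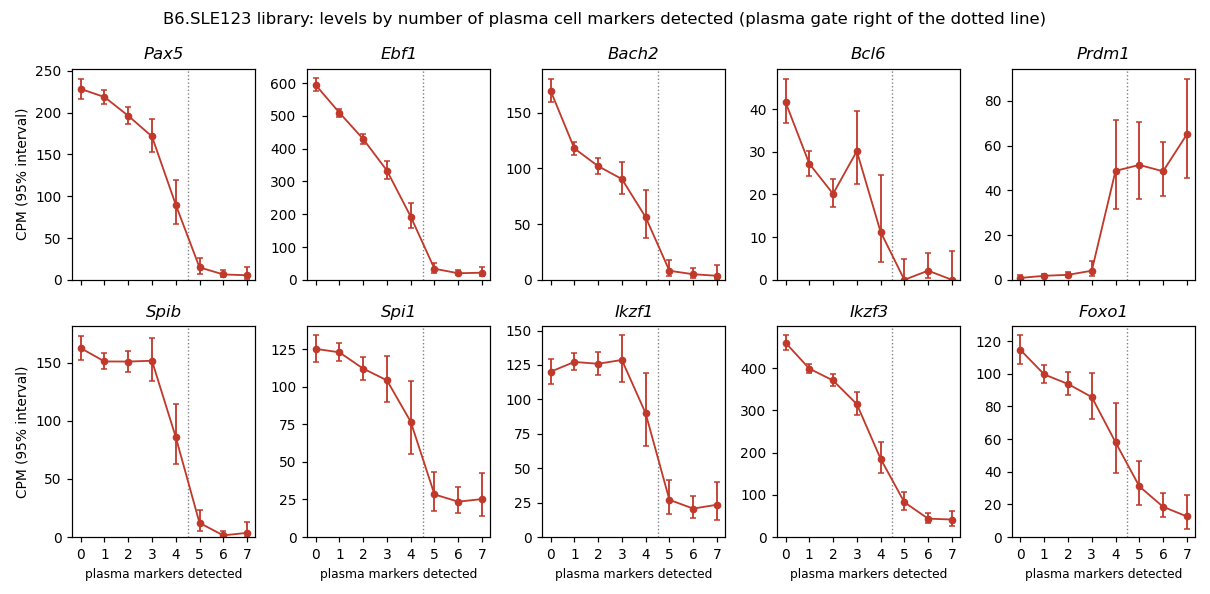
CPM of each member in B and plasma cells of the B6.SLE123 library, by the number of plasma markers detected in a cell (0 to 7), with exact 95% intervals for counting error. The step of Prdm1 lies between 3 and 4 markers. Pax5, Ebf1, Bach2, Spib, Spi1, Ikzf1 and Ikzf3 lie lower at 5 markers than at 4 with intervals apart, Spib and Ikzf3 lower again at 6. The intervals of Bcl6 and Foxo1 at 4 and 5 markers overlap. Immunoglobulin genes, counted in these totals, held 19.2% of UMIs at 4 markers and 48.4% at 5. Without them the falls are smaller: Spi1 measures 95 and 54.9 CPM and Ikzf3 229 and 160 CPM at 4 and 5 markers. Intervals were not calculated on that scale.

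All 6 genes known as repressed by Blimp-1 were past 2-fold lower in plasma cells, 3 of them members (median log2 ratio -4.84, beside -1.23 over all genes): Ciita, the regulator of MHC class II genes, measured 177 CPM in B cells and 7.05 CPM in plasma cells, Id3 122 and 3.71 CPM, and Myc 68.2 and 7.79 CPM. Of 7 genes known as activated by Pax5 or Ebf1, 6 were past 2-fold lower, among them Cd22 with a log2 ratio of -4.03 and Cd72 with -4.85. Of the 5 genes known as activated by Foxo1, 4 were past 2-fold lower, and Il7r, with no UMI in plasma cells, was at least 1.62-fold lower against a floor of 3 counts. Of the 4 genes known as activated by PU.1 or Spi-B, 3 were past 2-fold lower. Of the 20 other regulators, 14 were past 2-fold lower and 2 higher, Irf4 (40.1 and 148 CPM) and Xbp1 (93.7 and 1579 CPM, itself a plasma marker), both required for antibody secretion. Pou2af1 differed little, at 192 and 181 CPM. Beside the 60.1% of all genes, the shares of 14 of 20 and 3 of 4 lay near the background. With immunoglobulin genes left out of the totals, 9 of the 20 other regulators were past 2-fold lower and 3 higher, and 5 of 7, 6 of 6, 4 of 5 and 2 of 4 of the genes known as activated by Pax5 or Ebf1, repressed by Blimp-1, activated by Foxo1 and activated by PU.1 or Spi-B were lower, where 20.8% of all genes were.

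Detection of pairs of factors was also read in single cells of the B6.SLE123 library. There Pax5 was detected in 39.2% of B cells with an Ebf1 UMI and in 31.4% of those without. Spi1 was detected in 30.7% of B cells with a Spib UMI and in 21% of those without. In plasma cells Pax5 was detected in 5 of 93 cells with a Prdm1 UMI (5.38%) and in 8.92% of those without. Cells of greater depth have more of every gene detected, so these shares are a description.

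Over 46 sums of a class in a library, the genes whose log2(CPM + 1) followed a member most closely were found for each. For Pax5 they included Fcmr (Pearson r 0.954) and Scd1, and for Ebf1 4930426D05Rik (0.951), Vpreb3 and Fcmr. For Spib they were Abhd17b (0.9), Etnk1 and Fcrla, for Ikzf3 Cers4 (0.885), Lax1 and Cd2, and for Bach2 Fchsd2 (0.858), Grap and Otud1. For Foxo1 they were Ankrd10 (0.849), Zc3h15 and Zfp292, for Ikzf1 Sp1 (0.816), Pabpn1 and Rtf1, and for Spi1 they included Aldh2 (0.791) and Ifngr2. The best matches were lower for Bcl6, namely 4930402H24Rik (0.686), Kif3b and Prdm4, and for Prdm1, namely Sec24a (0.654), Socs2 and Clptm1l. Among the members Pax5 and Ebf1 were closest (0.914), and Spi1 and Ikzf3 farthest apart (-0.38). Sums of 1 library share its preparation, and B cell subsets share cells with the B cell sum.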

How the data were processed

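Counts were used as deposited: the authors made them with Cell Ranger 6.0.0 on mm10 (per the labels), as whole UMI counts per gene and hashtag for each barcode, not normalized. Here a barcode was kept where more than 200 but fewer than 3500 genes had a UMI and mitochondrial genes held less than 15% of its UMIs. Hashtags were called by Otsu's threshold per library, and barcodes positive for several (13.5%, 11.4% and 18% of those passing) were removed as doublets; barcodes with none stayed. No other doublet caller was run. Barcodes numbered 18218, 16062 and 20691, with 44146350, 59043555 and 63516694 gene UMIs.

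Cells were classed by markers with a UMI: at least 2 of 4 for B cells, 5 of 7 for plasma cells outside the germinal centre gate, and 3 for other lineages. Subset gates needed 3 markers (follicular, marginal zone, germinal centre, cycling) or 2 (B1, transitional), and transitional B cells also needed a Cd93 UMI. Subsets did not share cells. The germinal centre gate took precedence over the cycling gate, and the cycling gate over the others. B cells that met several of the other gates (134, 346 and 111) were left out of the subsets. Genes were compared with at least 50 UMIs over both sums, with 3 UMIs put in place of 0, and called past 1.5-fold between libraries or 2-fold between classes. Intervals were exact (Poisson for a level, conditional binomial for a ratio), and PCR and capture error are outside them. TMM factors came from edgeR 4.0.16 in R 4.3.3, used on the class sums for scaling only. Positions are GENCODE vM21 on GRCm38, matched by symbol or identifier for 32158 of 32285 genes. The interval calculations were tested on simulated counts. Other tools were Python 3.11.15, numpy 2.4.6, scipy 1.17.1, pandas 2.3.3, scanpy 1.11.5, leidenalg 0.10.2 and matplotlib 3.10.9.

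The members and the 5 further gene lists were chosen with earlier results of these data known. The text names the 10 members whatever their values, list genes as counts with a few examples, and the 3 genes most like each member, except genes not reported here. Alternatives were UMI limits on cells, no doublet removal, Leiden clusters made without the members, a stricter gate, CPM without immunoglobulin genes, TMM, a minimum of 10 UMIs, and each hashtag population left out; follicular B cells in place of all B cells and barcodes with exactly 1 hashtag were added after seeing the data.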

Additional observations from a re-analysis of the deposited data

Results flagged for a closer look

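Among the 30 groups of 6 hashtag populations of B cells (10 genes in 3 libraries), 2 had a value farther from its neighbour than Dixon's 95% critical value of 0.625 for 6 values allows, where chance alone gives about 1 in 20, or 1.5 of 30. Ebf1 in the Ang II library was lowest in the population with hashtag C0301, at 808 CPM, where the other 5 lay between 880 and 913 CPM (gap over range 0.684). Even this lowest value lay above the highest control population. Spib in the control library was highest in the population with hashtag C0303, at 273 CPM from 808 UMIs, where the other 5 lay between 204 and 229 CPM (gap over range 0.629). The labels do not say which mice either hashtag marks.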

How the results depend on the processing

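With the cell limits read as UMIs, the count of members past 1.5-fold in B6.SLE123 against control B cells went from 3 to 0, the count past 2-fold in plasma against B cells went from 10 to 2, and Ikzf1 and Ikzf3 turned from lower to higher in plasma cells, with log2 ratios of 0.37 and 0.34. This reading keeps only cells under 3500 UMIs, below the median of 10050.5 UMIs of the B6.SLE123 plasma cells. In follicular B cells, an alternative chosen after seeing the data, the first count was also 0, with log2 ratios of -0.56 for Pax5, -0.46 for Ebf1 and 0.51 for Prdm1 (-1.34 to 2.31, from 6 and 7 UMIs, under the minimum of 50, so that it could not be called there), and the cause was not tested. The 22 other values of the 3 counts were within 1.5 times of those reported. Leaving out each hashtag population in turn gave counts of 3 to 3, 0 to 0 and 10 to 10. Without 1 population the B6.SLE123 log2 ratio of Pax5 ranged from -0.69 to -0.65, that of Ebf1 from -0.70 to -0.63 and that of Prdm1 from 0.70 to 1.08. Of the single-gene ratios under the other alternatives, 184 moved by less than the spread between hashtag populations, 42 by more, and the 2 above turned from a called fold. Among those 184 and 42, 3 that lay near 0 crossed it: Spi1 in B6.SLE123 B cells, from -0.02 to 0.02 without doublet removal and 0.00 under TMM, and Spib in Ang II B cells, from 0.05 to -0.00 under TMM. No paired analysis was possible because each group was 1 library and the hashtags carry no pairing. Depth limits Prdm1 in B cells (52 to 111 UMIs) and Bcl6 in plasma cells (3 UMIs).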
